A study of Mus musculus with 36 samples.

Results

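The genes described here mark the epithelium of the choroid plexus, the tissue that secretes the cerebrospinal fluid. They are Ttr, Folr1, Kcnj13, Clic6, Kl, Otx2, Enpp2 and Slc4a5, chosen by gene symbol as a measure of how much of this neighbouring tissue a dissection of the dorsal vagal complex held. All 8 were among the 24344 genes of the deposited table, and all 8 were among the 20108 genes that passed the filter on low counts. RNA had been sequenced in 36 libraries of that brainstem region, which includes the solitary tract nucleus and the vagal motor nucleus beside it. Per the labels the mice were wild type and untreated apart from the diet. They belonged to 3 inbred strains, C57BL/6J, CAST/EiJ and NZO/HlLtJ, of which CAST/EiJ is wild-derived and NZO/HlLtJ is prone to obesity. From 6 weeks of age until collection at 15 weeks they were fed either control food (10% fat) or food high in fat and sugar (44% fat), called HFHS below, and both contained fiber. Each of the 12 groups of strain, sex and diet held 3 libraries, numbered here in accession order within a group.

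The choroid plexus is a folded sheet of epithelial cells around leaky capillaries that hangs into the ventricles of the brain. In the hindbrain it forms the roof of the fourth ventricle and is attached near the dorsal vagal complex, so a dissection of that complex can carry it along. Its cells are among the strongest expressers of transthyretin in the body, move ions and water into the ventricle, carry folate and hormones across, and hold tight junctions that separate blood from cerebrospinal fluid. In a library of whole tissue, fewer cells of a type and less RNA per cell cannot be told apart, and a level below is therefore an amount of RNA.

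Total counts per library ran from 22.03 to 49.61 M (M, 1e6 counts). Levels are given as CPM, counts per 1e6 counts of the library. Hox genes, which mark the hindbrain behind its front edge and the spinal cord, summed to under 10 CPM in 3 libraries, CAST/EiJ male control 1, CAST/EiJ male control 3 and NZO/HlLtJ male control 3. Slc18a3, the vesicular acetylcholine transporter of motor neurons such as those of the vagus, was detected in all 36 libraries and ran from 6.35 to 32.6 CPM. Gh, the growth hormone of the pituitary, reached 11700 CPM in 1 library, NZO/HlLtJ male control 1, against a median of 0.0356 CPM. The labels do not say whether libraries of a group came from separate mice, so p-values measure the spread between these libraries.

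On GRCm38, with the models of gencode vM21, Folr1 (ENSMUSG00000001827) spans 101858331 to 101870788 of chromosome 7 on the minus strand, Kcnj13 (ENSMUSG00000079436) 87386363 to 87394729 of chromosome 1 on the minus strand, and Clic6 (ENSMUSG00000022949) 92485736 to 92541243 of chromosome 16 on the plus strand. Kl (ENSMUSG00000058488) spans 150952607 to 150993817 of chromosome 5 and Slc4a5 (ENSMUSG00000068323) 83219828 to 83304945 of chromosome 6, both on the plus strand. Otx2 (ENSMUSG00000021848) spans 48657677 to 48673819 of chromosome 14 and Enpp2 (ENSMUSG00000022425) 54838901 to 54952892 of chromosome 15, both on the minus strand, and Ttr (ENSMUSG00000061808) is on chromosome 18. Each is protein-coding.

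Kcnj13 lies inside Gigyf2 on the other strand, and 623 of their exon bases coincide. Gigyf2 stayed at 75.0 to 92.8 CPM in the 36 libraries while Kcnj13 ran from 0.174 to 30.2 CPM. Whether the counting used the strand is not given in the sources used here. Otx2 shares 154 exon bases with the antisense gene Otx2os1 and 168 with Gm49154, and Enpp2 shares 345 with Gm26684, which stayed under 0.5 CPM. Ttr, Folr1, Clic6, Kl and Slc4a5 share no exon base with another gene of gencode vM21.

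Ttr, which encodes transthyretin, the carrier of thyroid hormone and of the retinol-binding protein that the plexus secretes, ran over a 1290-fold range from its lowest to its highest library. In C57BL/6J it ran from 164 through a median of 587 to 1290 CPM on the control diet, and from 530 through 836 to 2540 CPM on HFHS (n = 6 libraries for each strain and diet). In CAST/EiJ it ran from 2.06 through 900 to 1870 CPM on the control diet and from 180 through 743 to 1020 CPM on HFHS. In NZO/HlLtJ it ran from 6.87 through 469 to 2660 CPM on the control diet and from 6.46 through 106 to 1040 CPM on HFHS. The 6 sets overlapped, and the spread inside a set was wider than any gap between sets.

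The libraries fell into 2 sets by Ttr, 8 with 2.06 to 23.9 CPM and 28 with 164 to 2660 CPM, with none between. The 8 Ttr-poor libraries were CAST/EiJ female control 1, CAST/EiJ male control 3, NZO/HlLtJ female control 3, NZO/HlLtJ male control 2, NZO/HlLtJ male control 3, NZO/HlLtJ female HFHS 3, NZO/HlLtJ male HFHS 2 and NZO/HlLtJ male HFHS 3. Thus 6 of 12 NZO/HlLtJ libraries, 2 of 12 CAST/EiJ libraries and 0 of 12 C57BL/6J libraries were Ttr-poor, 5 of them on the control diet and 3 on HFHS. In 6 of the 12 groups the highest of 3 libraries held over 10 times the Ttr of the lowest. The ratio ran from 1.65 in CAST/EiJ male HFHS to 908 in CAST/EiJ male control. Of the 3 Hox-poor libraries, CAST/EiJ male control 3 (2.06 CPM of Ttr) and NZO/HlLtJ male control 3 (6.87 CPM) were Ttr-poor, while CAST/EiJ male control 1 held 588 CPM.

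**Figure D1:**
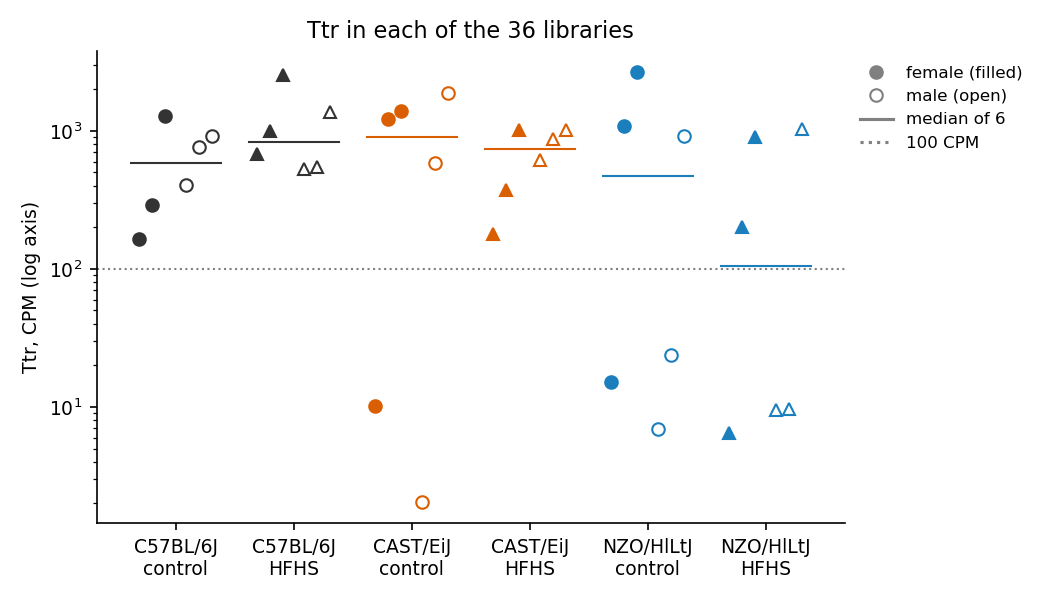
Ttr in CPM on a log axis, 1 point a library, by strain and diet, with females filled and males open; the horizontal bars are medians of 6 libraries and the dotted line is 100 CPM. The 12 C57BL/6J libraries lie at 164 CPM or more, while 2 CAST/EiJ and 6 NZO/HlLtJ libraries lie at 23.9 CPM or less.

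The other members were at lower levels, and most of them were low in the same libraries. Per kilobase of gencode vM21 exon, which allows genes to be compared approximately, the median level over the 36 libraries was 546 CPM for Ttr, 139 for Enpp2, 5.57 for Kcnj13, 4.78 for Clic6, 3.97 for Kl, 2.06 for Slc4a5, 1.58 for Folr1 and 1.52 for Otx2. Neighbours in this order differed in most libraries but not in all. Enpp2 stood above Kcnj13 in 36 of 36 libraries, Kl above Slc4a5 in 35, Slc4a5 above Folr1 in 34 and Clic6 above Kl in 32. Ttr stood above Enpp2 in 28 libraries, and the remainder were the 8 Ttr-poor ones. Kcnj13 stood above Clic6 in 23 libraries and Folr1 above Otx2 in 17, so the order within each of these pairs changed from library to library.

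Among the transporters and channels, Slc4a5 encodes a sodium bicarbonate cotransporter of the membrane that faces the ventricle. Its level ran from 6.91 through 14.0 to 39.9 CPM in C57BL/6J, from 0.696 through 11.0 to 29.8 CPM in CAST/EiJ and from 1.05 through 4.20 to 46.0 CPM in NZO/HlLtJ (lowest, median and highest of 12 libraries each). Kcnj13 encodes Kir7.1, an inward rectifier potassium channel of the same membrane. Its level ran from 1.94 through 9.42 to 30.2 CPM in C57BL/6J, from 0.174 through 7.21 to 21.7 CPM in CAST/EiJ and from 0.296 through 2.23 to 21.7 CPM in NZO/HlLtJ. Clic6, a member of the chloride intracellular channel family, ran from 7.88 through 25.3 to 76.7 CPM in C57BL/6J, from 1.25 through 15.4 to 45.7 CPM in CAST/EiJ and from 2.35 through 6.12 to 77.8 CPM in NZO/HlLtJ. For each of the 3 the ranges of the strains overlapped.

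Among the receptors and secreted proteins, Folr1 encodes the folate receptor alpha, which carries folate into the cerebrospinal fluid. It ran from 1.01 through 4.63 to 15.4 CPM in C57BL/6J, from 0.0281 through 2.21 to 5.49 CPM in CAST/EiJ and from 0 through 0.857 to 16.4 CPM in NZO/HlLtJ. NZO/HlLtJ male HFHS 2 had 0 counts of it, which allows up to 0.102 CPM (3 counts). Kl encodes Klotho, a coreceptor of fibroblast growth factor 23 that is also shed into the fluid, and ran from 13.0 through 47.3 to 142 CPM in C57BL/6J, from 2.41 through 29.9 to 69.2 CPM in CAST/EiJ and from 3.58 through 13.0 to 150 CPM in NZO/HlLtJ. Enpp2 encodes autotaxin, a secreted enzyme that makes lysophosphatidic acid and is also made by oligodendrocytes. It ran from 567 through 969 to 1970 CPM in C57BL/6J, from 173 through 619 to 1180 CPM in CAST/EiJ and from 295 through 486 to 2070 CPM in NZO/HlLtJ. Together the 8 genes made up 0.0184% to 0.506% of the counts of a library.

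Otx2 encodes a homeodomain transcription factor that the plexus needs to form, and it is also expressed in parts of the cerebellum. It ran from 2.66 through 7.06 to 16.7 CPM in C57BL/6J, from 2.25 through 4.82 to 15.2 CPM in CAST/EiJ and from 0.506 through 6.83 to 15.4 CPM in NZO/HlLtJ. Its medians thus differed less between strains than those of Folr1 or Kcnj13.

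The Ttr-poor libraries split the members. There Folr1 was at 0 to 0.277 CPM, Kcnj13 at 0.174 to 2.19 CPM, Clic6 at 1.25 to 4.07 CPM, Kl at 2.41 to 11.9 CPM and Slc4a5 at 0.696 to 3.26 CPM. For Folr1 and Clic6 all 8 values lay below the lowest of the 28 other libraries, 0.343 and 5.49 CPM, while Kcnj13, Kl and Slc4a5 reached slightly above theirs, 1.94, 9.20 and 3.19 CPM. Enpp2 was at 173 to 512 CPM, and Otx2 at 0.506 to 13.4 CPM, which overlapped the other libraries. For Enpp2 the lowest of these values came from CAST/EiJ male control 3, which also had the least Mbp, the myelin basic protein of oligodendrocytes (2880 CPM), and the highest from NZO/HlLtJ male control 2, which had the most (7570 CPM). For Otx2 the highest value, 13.4 CPM, was that of NZO/HlLtJ male control 3, which held 80.5 CPM of Gabra6, a receptor subunit of cerebellar granule cells. More Gabra6 with less Otx2 was held by CAST/EiJ male control 3 (315 CPM of Gabra6 and 5.08 CPM of Otx2), NZO/HlLtJ female control 3 (123 and 6.29) and NZO/HlLtJ male HFHS 3 (92.3 and 3.63). NZO/HlLtJ female HFHS 3 held 72.9 CPM of Gabra6 and 8.30 CPM of Otx2. The lowest Gabra6 levels were in NZO/HlLtJ male control 2 (16.9, with 2.23 CPM of Otx2), CAST/EiJ female control 1 (2.72 and 2.25) and NZO/HlLtJ male HFHS 2 (2.26 and 0.506). The part of oligodendrocytes and of cerebellar cells in these levels was not tested.

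**Figure D2:**
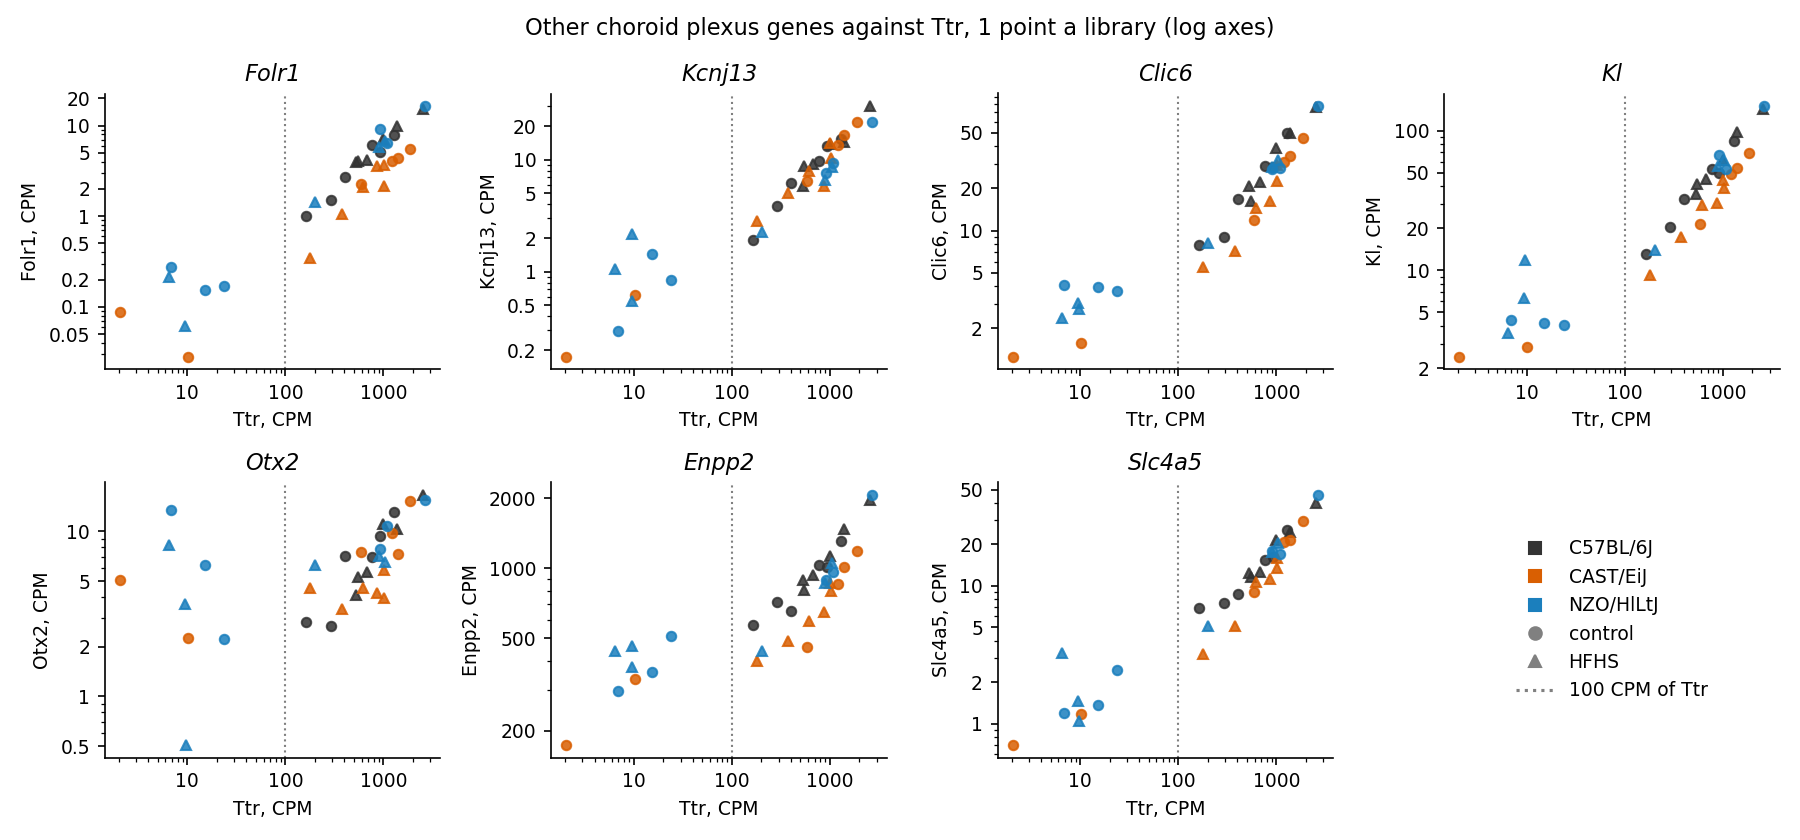
Each of the 7 other members in CPM against Ttr in CPM, on log axes, 1 point a library, coloured by strain and shaped by diet; the dotted line is 100 CPM of Ttr, and the library with 0 counts of Folr1 is not drawn in that panel. Right of the line the points follow Ttr in every panel, most loosely for Otx2; left of it Otx2 spreads from 0.506 to 13.4 CPM and Enpp2 stays at 173 CPM or more.

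The diets were compared within each strain to ask whether the amount of choroid plexus RNA in the dissection differed with the food, and no member passed the test. In edgeR's quasi-likelihood test with Benjamini-Hochberg adjustment over all genes (a gene is called at an adjusted p under 0.05), 0 of 8 members were called in C57BL/6J, 0 of 8 in CAST/EiJ and 0 of 8 in NZO/HlLtJ. Of all genes, 0.0%, 0.269% and 0.0497% were called in these comparisons. Unadjusted p was under 0.05 for 0 members in each strain, and DESeq2 and limma also called 0 members. For all genes in C57BL/6J, where 0 were called, 525 had an unadjusted p under 0.05 and DESeq2 and limma called 0.

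The values behind this were as follows, as log2 HFHS minus control. In C57BL/6J all 8 members were above 0, from 0.29 for Otx2 to 0.87 for Folr1. Ttr was at 0.75 there. In CAST/EiJ all 8 were below 0, from -0.83 for Otx2 to -0.08 for Enpp2, with Ttr at -0.35. With limma on the deposited log2 values Ttr was at 1.19 in CAST/EiJ, Kl at 0.18 and Enpp2 at 0.15, so the common direction did not hold in that analysis. In NZO/HlLtJ all 8 were below 0, from -1.02 for Folr1 to -0.40 for Enpp2, with Ttr at -0.80. Standard errors (SE) ran from 0.44 for Enpp2 to 1.32 for Ttr in each strain. Single libraries turned the sign. Without NZO/HlLtJ male control 1 Ttr was at 1.39 in NZO/HlLtJ, and without NZO/HlLtJ male HFHS 1 it was at -3.40. In CAST/EiJ Ttr was at 0.39 without CAST/EiJ male control 2. Without the 3 Hox-poor libraries the values ran from -1.18 to -0.57 in CAST/EiJ and from -1.29 to -0.53 in NZO/HlLtJ, with 0 members called. The members share the same libraries, so their common sign is not 8 separate observations. The test of whether the diet effect differed between the strains called 0 of 8 members (adjusted p 0.703 to 0.921 in edgeR's test; 0 members at an unadjusted p under 0.05; 0 by DESeq2 and limma) and 0.0% of all genes.

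Between strains and sexes no member passed the test either. For NZO/HlLtJ minus C57BL/6J all 8 members were below 0, from -1.22 (SE 0.61) for Kcnj13 to -0.16 (SE 0.34) for Otx2. Ttr was at -0.80 with a wide SE of 0.94. It ran from -2.10 to -0.45 when 1 library at a time was left out, and from -2.42 to -0.65 over the other alternatives. For CAST/EiJ minus C57BL/6J they ran from -1.16 (SE 0.75) for Folr1 to -0.15 (SE 0.93) for Ttr, and Ttr was at 0.17 without the 3 Hox-poor libraries. For CAST/EiJ minus NZO/HlLtJ 4 lay above 0 and 4 below. Members called numbered 0 of 8 in each comparison by edgeR's test, against 23.8%, 52.2% and 49.8% of all genes. An unadjusted p under 0.05 was reached by 1 member, Enpp2 in CAST/EiJ minus C57BL/6J (log2 -0.66 with an SE of 0.31 and an adjusted p of 0.0775 in edgeR's fit). Limma on the deposited values called it (adjusted p = 0.0307), as did the fits without CAST/EiJ male control 2 (adjusted p = 0.0163) and with the Hox level as a covariate (adjusted p = 0.00974), and DESeq2 did not. Without NZO/HlLtJ male control 1, Kcnj13 was called in NZO/HlLtJ minus C57BL/6J, at -1.83, and higher in CAST/EiJ than in NZO/HlLtJ, at 1.59. Between males and females 0 of 8 members were called and 0.0796% of all genes, with log2 values of -0.35 to -0.16 for male minus female.

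The same comparisons were made for 30 other genes of the choroid plexus in 4 lists, for transport, for junctions and matrix, for secreted proteins and enzymes, and for transcription factors. For diet 0 of 30 were called in each strain, with median log2 values of 0.43 in C57BL/6J, -0.19 in CAST/EiJ and -0.62 in NZO/HlLtJ, where the medians of all genes were within 0.01 of 0. Between strains 2 of 30 were called in NZO/HlLtJ minus C57BL/6J, both below 0, against 23.8% of all genes. In CAST/EiJ 1 was called higher and 3 lower than in C57BL/6J, and 2 higher and 2 lower than in NZO/HlLtJ, against 52.2% and 49.8% of all genes.

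To see which genes moved with the amount of plexus RNA inside a group, log2 CPM of Ttr was added to the fit as a covariate. The slope on Ttr is then the log2 change of a gene for each log2 unit of Ttr, so a gene with a slope of 1 would move in proportion to Ttr. Of the 7 other members, 6 were called and all 6 rose with Ttr, against 0.94% of all genes (183 genes, or 0.91%, with a rising slope and 6 with a falling one). The members were chosen with earlier results of these data known, so this share is a description. Folr1 had the steepest slope at 0.86 (SE 0.04; edgeR's adjusted p = 1.35e-15). Kl at 0.57, Kcnj13 and Slc4a5 at 0.56 and Clic6 at 0.55 formed a group with SE of 0.03 to 0.04 and adjusted p of at most 6.32e-10. Enpp2 was shallower at 0.24 (SE 0.02, adjusted p = 2.49e-07). Otx2 was not called, with 0.14 (SE 0.05, adjusted p = 0.267). With limma on the deposited variance-stabilised log2 values the same 6 were called, but the slopes were 0.24 for Folr1, 0.26 for Kcnj13, 0.32 for Slc4a5, 0.37 for Clic6 and 0.44 for Kl, so that Folr1 was not the steepest there.

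Without the 8 Ttr-poor libraries the slopes were steeper. Folr1 then had 0.99 (SE 0.06), Clic6 0.96, Kl 0.91, Kcnj13 0.90, Slc4a5 0.82, Enpp2 0.52 and Otx2 0.48 (SE 0.10). All 7 were called in that fit (adjusted p = 0.0296 for Otx2, the highest), against 0.565% of all genes. Folr1, Clic6, Kl and Kcnj13 thus moved nearly in proportion to Ttr in these 28 libraries, while the slopes of Enpp2 and Otx2 were lower.

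**Figure D3:**
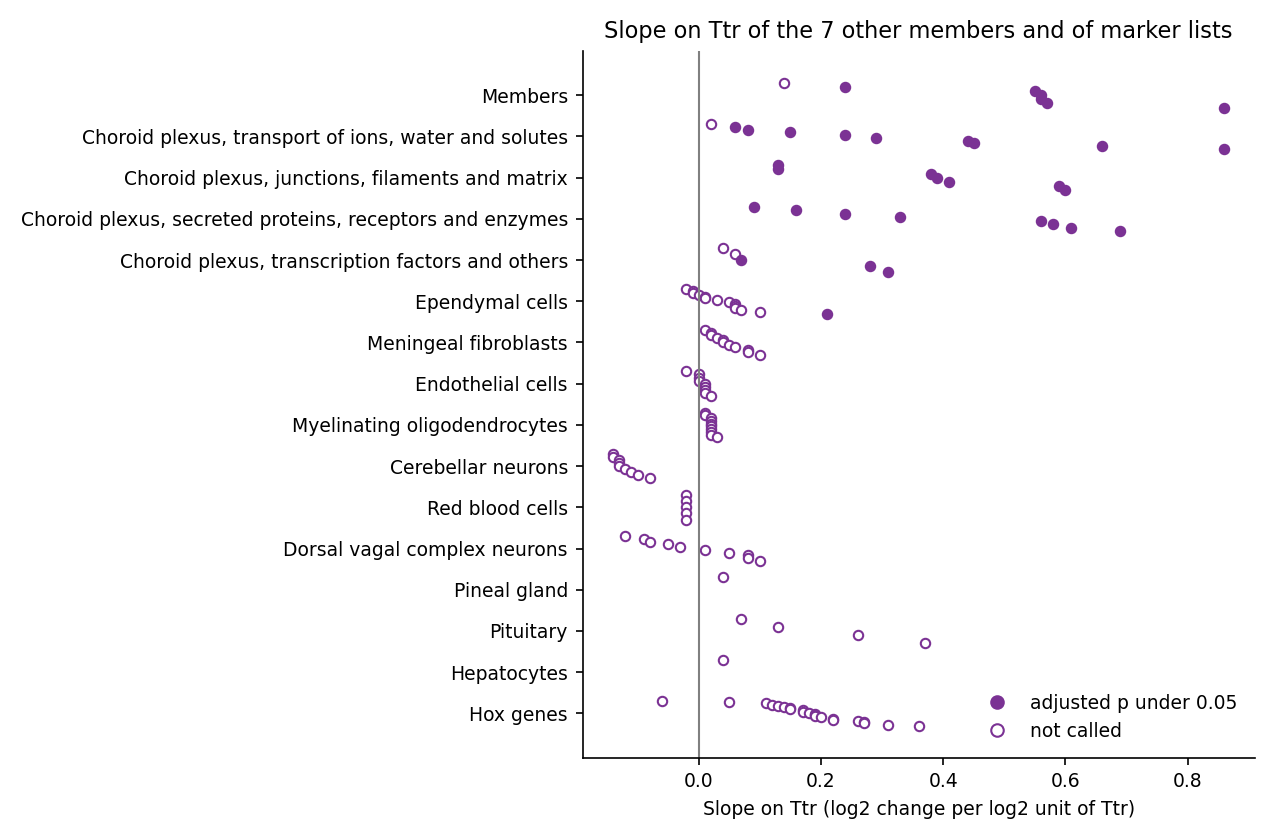
Slope on Ttr (log2 change of a gene per log2 unit of Ttr) for the 7 other members and for the genes of each marker list, 1 point a gene, filled where the adjusted p is under 0.05. Members and choroid plexus genes reach 0.86, while 1 gene of the 11 other lists, Mia at 0.21, is called.

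Over the 28 libraries with at least 100 CPM of Ttr, each other member also correlated with Ttr across libraries, on log2 CPM centred on the strain mean. Pearson's r was 0.99 for Kl, 0.98 for Clic6, 0.97 for Folr1, Kcnj13 and Slc4a5, 0.96 for Enpp2 and 0.78 for Otx2. Spearman's rho ran from 0.94 to 0.98 for the first 6 and was 0.80 for Otx2. The two-sided permutation p of r within strains was 1e-05 for each, the smallest that 100000 resamples can give, and 1e-05 after Benjamini-Hochberg adjustment over the 7 relations. Without the 2 libraries farthest from the median of Ttr, r was 0.96 to 0.98, and 0.78 for Otx2. Inside each strain r was 0.93 to 0.99 for the 6, while for Otx2 it was 0.92 in C57BL/6J, 0.62 in CAST/EiJ and 0.76 in NZO/HlLtJ.

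Among the 8 Ttr-poor libraries no relation passed the test. Pearson's r ran from -0.39 for Otx2 to 0.75 for Enpp2, Spearman's rho from -0.60 for Otx2 to 0.74 for Enpp2, and the adjusted exact permutation p of r from 0.53 to 0.98. For Enpp2 r fell to 0.01 without the 2 farthest libraries. Since the libraries form 2 separate sets, r is given within each set.

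Of the 30 other choroid plexus genes 27 were called with a rising slope and 0 with a falling one, with a median slope of 0.30 against 0.00 over all genes. These lists, too, were chosen with earlier results of these data known. For ion, water and solute transport 9 of 10 were called. Kcne2, a potassium channel subunit, had 0.86 (SE 0.03; edgeR's adjusted p = 1.43e-17) and Aqp1, the water channel of the plexus, had 0.66. At the other end were Slc4a2 at 0.06 and Slc29a4 at 0.02, of which Slc29a4 was not called (adjusted p = 0.392).

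For junctions, filaments and matrix 7 of 7 were called. Krt8, a keratin of simple epithelia, had 0.60, and Cldn2, a claudin of leaky tight junctions, had 0.59. Col9a3 and Spint2 were lowest with 0.13 each. For secreted proteins, receptors and enzymes 8 of 8 were called, from Wfdc2 at 0.69 and Sostdc1, a secreted antagonist of BMP and Wnt signals, at 0.61 to Ace at 0.16 and Rdh5 at 0.09. For transcription factors and others 3 of 5 were called, namely Calml4 at 0.31, Msx1 at 0.28 and Cab39l at 0.07. Lmx1a at 0.06 (adjusted p = 0.556) and Tmem72 at 0.04 (adjusted p = 0.0548) were not. Tmem72, at 125 to 329 CPM, was the most abundant gene of these lists.

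Few markers of other tissues passed this test. Of 14 ependymal genes 1 was called, Mia at 0.21. By edgeR's test 0 were called of 11 genes of meningeal fibroblasts, 9 of endothelial cells, 10 of oligodendrocytes, 9 of cerebellar neurons, 5 of red blood cells, 10 tested genes of neurons of the dorsal vagal complex and 22 Hox genes. The single tested genes of the pineal gland (Aanat) and of hepatocytes (Apoa1, at most 0.420 CPM) and the 4 of the pituitary were not called either. Median slopes of these lists lay between -0.13 for cerebellar neurons and 0.20 for the pituitary, with 0.18 for the Hox genes. The summed level of the ependymal list ran from 50.9 to 81.4 CPM in C57BL/6J, from 74.4 to 115 CPM in CAST/EiJ and from 43.9 to 87.7 CPM in NZO/HlLtJ. Foxj1, the master regulator of motile cilia, stayed at 10.0 to 26.1 CPM.

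Across the 28 libraries richer in Ttr, the mean log2 CPM of the 4 choroid plexus lists correlated with Ttr at r of 0.91 to 0.99 and rho of 0.88 to 0.97 (permutation p = 1e-05, adjusted p = 3.7e-05 over 15 lists). The ependymal list reached r = 0.59 and rho = 0.63 (permutation p = 0.0016 for r and 0.00085 for rho, adjusted p = 0.0049 and 0.0025), and r = 0.68 without the 2 farthest libraries. Inside strains that r was 0.67 in C57BL/6J, 0.39 in CAST/EiJ and 0.66 in NZO/HlLtJ. The other 10 lists lay between -0.35 and 0.28 with adjusted permutation p of 0.18 to 0.94. Among the 8 Ttr-poor libraries r of the 4 choroid plexus lists ran from -0.78 for junctions, filaments and matrix to 0.57 for secreted proteins. The adjusted exact permutation p of these 4 was 0.72 to 0.96.

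The 250 bases before the start of transcription are shown for the 4 members that have an entry in the RefSeq promoter table (GRCm38.p6). Kcnj13, Kl and Slc4a5 were called for the slope on Ttr in the fit on 36 libraries, and Otx2 was not called there but was in the fit on 28. The core of the site that Otx proteins bind, TAATC or on the other strand GATTA, was searched on both strands and is in capitals where present. Otx2 has 4 windows in the table, of which 1 held the core. That window is shown and was chosen for the match. The windows are chr1:87394730-87394979 on the minus strand for Kcnj13, chr5:150952357-150952606 on the plus strand for Kl, chr6:83237125-83237374 on the plus strand for Slc4a5, a start inside the gene model given above, and chr14:48665110-48665359 on the minus strand for Otx2, likewise a start inside its gene model, each read 5′ to 3′ on its own strand.
Kcnj13: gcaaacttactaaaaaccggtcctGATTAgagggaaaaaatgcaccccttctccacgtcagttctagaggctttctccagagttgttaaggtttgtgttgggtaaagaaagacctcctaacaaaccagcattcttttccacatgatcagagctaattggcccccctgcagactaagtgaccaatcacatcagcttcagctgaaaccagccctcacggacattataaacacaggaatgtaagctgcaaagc
Kl: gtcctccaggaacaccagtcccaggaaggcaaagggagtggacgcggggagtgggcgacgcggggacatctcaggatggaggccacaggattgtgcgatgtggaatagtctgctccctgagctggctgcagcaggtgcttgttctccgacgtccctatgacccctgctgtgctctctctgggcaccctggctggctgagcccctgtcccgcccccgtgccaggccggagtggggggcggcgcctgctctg
Slc4a5: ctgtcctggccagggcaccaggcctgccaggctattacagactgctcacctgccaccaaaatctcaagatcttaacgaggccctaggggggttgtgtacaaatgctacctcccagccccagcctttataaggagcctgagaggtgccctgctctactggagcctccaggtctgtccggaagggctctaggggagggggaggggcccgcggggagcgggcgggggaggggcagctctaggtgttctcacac
Otx2: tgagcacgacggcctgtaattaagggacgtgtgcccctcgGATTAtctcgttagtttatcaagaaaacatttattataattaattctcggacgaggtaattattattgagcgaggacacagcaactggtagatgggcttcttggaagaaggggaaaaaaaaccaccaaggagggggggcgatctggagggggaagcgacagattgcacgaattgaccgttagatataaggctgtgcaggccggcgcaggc
Kcnj13 held the core once, 226 bases before the start, and Otx2 held it once, 210 bases before, there with the sixth letter of the longer form TAATCC or GGATTA. Kl and Slc4a5 held neither. Of all 32851 windows of 250 bases that RefSeq gives, 19.8% held the core and 6.25% the longer form. Of the 41 windows of the members and the choroid plexus lists, 17.1% held the core and 7.32% the longer form. Whether Otx2 acts on these genes was not tested.

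The 15 protein-coding genes whose log2 CPM, centred on the strain mean, was most like the mean of the 8 members were taken from 16003 genes, as a description of likeness without a test. They were ranked by r over all 36 libraries, an order that also carries the gap between the 2 sets of libraries, so r within the 28 libraries richer in Ttr is printed here. In the order of that ranking they included F5, the clotting factor V (r = 0.98 within the 28 libraries), Cldn2 (0.98), Sostdc1 and 1500015O10Rik (0.99 each), Mfrp and Aqp1 (0.98 each), Rbm47 (0.95), Kcne2 (0.98), Wdr86 (0.95), Col8a1 (0.96), Igfn1 (0.93), Prr32 (0.92), Cldn1 (0.96) and Lbp (0.93). Of the 15, 7 were in the choroid plexus lists and 8 were not. F5 ran from 1.26 through 17.3 to 58.8 CPM. Among those outside the lists Mfrp, a frizzled-related membrane protein, ran from 0.847 through 9.80 to 56.6 CPM with a slope on Ttr of 0.60. When profiles were centred on the 12 groups instead, 12 of the 15 were shared, and with Ttr alone as the profile 13. Over all genes called for the slope, 13 of the 20 steepest were members or genes of the choroid plexus lists, while 155 of the 189 called genes were in no list.

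At equal Ttr some members differed between strains. In CAST/EiJ 4 of 7 members were called lower than in C57BL/6J, against 27.4% of all genes called lower and 51.4% called in either direction. They were Folr1 (log2 -0.99, SE 0.17, adjusted p = 1.61e-05), Kl (-0.59, SE 0.19, adjusted p = 0.0106), Enpp2 (-0.50, SE 0.14, adjusted p = 0.00363) and Clic6 (-0.49, SE 0.19, adjusted p = 0.0318), all in edgeR's test. Against NZO/HlLtJ 5 of 7 were called lower in CAST/EiJ, where 27.2% of all genes were called lower and 49.7% in either direction. They were Folr1 (-1.16, SE 0.19, adjusted p = 9.73e-06), Kl (-0.76), Clic6 (-0.61), Enpp2 (-0.52) and Slc4a5 (-0.49, adjusted p = 0.0327). Between NZO/HlLtJ and C57BL/6J 0 of 7 were called by edgeR's test, DESeq2 or limma, with 0 at an unadjusted p under 0.05 and values from -0.20 to 0.28, against 20.1% of all genes. With limma on the deposited log2 values the same numbers of members were called, 4 and 5. On that variance-stabilised scale, whose sizes are not directly comparable with log2 CPM, Folr1 was at -0.32 against C57BL/6J and -0.41 against NZO/HlLtJ. Clic6 was at -0.31 against C57BL/6J and Slc4a5 at -0.29 against NZO/HlLtJ. Leaving out 1 library at a time kept the call of Folr1 against C57BL/6J in all 36 fits, with values from -1.08 to -0.93, while that of Clic6 was lost in 8 of them (values over the 36 fits from -0.62 to -0.36). Against NZO/HlLtJ the call of Folr1 was lost in 1 fit, without NZO/HlLtJ male HFHS 1 (-0.70, SE 0.43, adjusted p = 0.187), and that of Slc4a5 in 7 fits (values from -0.60 to -0.37). Without the 3 Hox-poor libraries 2 members were still called lower than in NZO/HlLtJ, Folr1 and Kl.

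The difference can be read in the counts themselves. For each 1000 counts of Ttr, C57BL/6J libraries held from 5.24 through a median of 6.44 to 7.83 counts of Folr1 (n = 12), NZO/HlLtJ libraries from 5.92 through 6.45 to 10.1 (n = 6) and CAST/EiJ libraries from 1.90 through 3.25 to 4.12 (n = 10), over the 28 libraries with at least 100 CPM of Ttr. The CAST/EiJ libraries did not overlap the others, on either diet. For Kl they held 34.9 to 51.0 counts against 53.5 to 80.4 in C57BL/6J and 49.2 to 73.0 in NZO/HlLtJ, so that they overlapped only the latter. The CAST/EiJ range of Clic6, 18.6 to 30.4, overlapped that of C57BL/6J, 29.7 to 48.0, in part. For Kcnj13 it was NZO/HlLtJ that had the lowest median, 8.23, with 7.34 to 11.2 counts that overlapped 10.3 to 15.9 in C57BL/6J and 6.71 to 15.8 in CAST/EiJ.

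**Figure D4:**
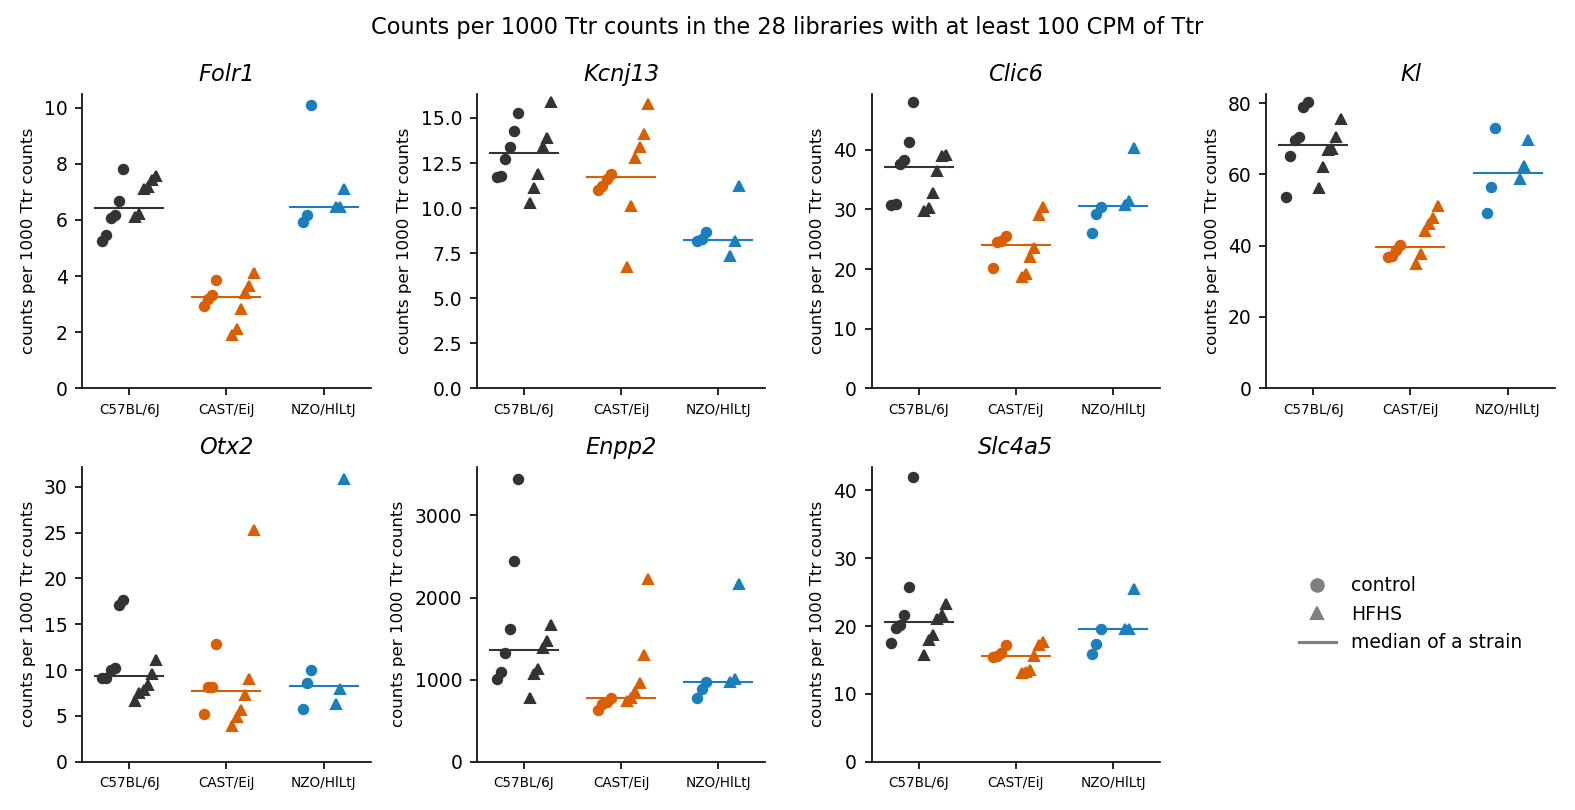
Counts of each other member per 1000 counts of Ttr in the 28 libraries with at least 100 CPM of Ttr, 1 point a library, by strain, with the diet as the shape and the median of a strain as a bar. The 10 CAST/EiJ libraries lie at 1.90 to 4.12 for Folr1, below all C57BL/6J and NZO/HlLtJ libraries.

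A fit on those 28 libraries gave similar values for the genes lower in CAST/EiJ than in C57BL/6J: Folr1 -1.03 (SE 0.11; edgeR's adjusted p = 3.68e-08), Kl -0.71, Clic6 -0.60, Enpp2 -0.59 and, now called, Slc4a5 -0.41. It called 5 of 7 members lower, against 25.6% of all genes called lower. In the same fit NZO/HlLtJ was lower than C57BL/6J for Kcnj13 (-0.58, SE 0.11, adjusted p = 0.000631) and Enpp2 (-0.25, SE 0.08, adjusted p = 0.0254), 2 of 7 members against 10.3% of all genes called lower. With all 36 libraries those 2 values were -0.20 and 0.02 and were not called. Against NZO/HlLtJ the 28 libraries gave 5 members lower in CAST/EiJ (22.9% of all genes were called lower) and Kcnj13 higher by 0.45 (SE 0.11, adjusted p = 0.00257; 20.4% of all genes were called higher).

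Such a difference is one between a gene and the reference it is set against, and the reference changes what is called. With Folr1 as the covariate in place of Ttr, 1 member was called in each comparison with CAST/EiJ, and it was Ttr itself: it was 1.02 (SE 0.35, adjusted p = 0.017) higher in CAST/EiJ than in C57BL/6J and 1.06 (SE 0.35, adjusted p = 0.0144) higher than in NZO/HlLtJ. Kl was then at 0.00 and Clic6 at 0.12 against C57BL/6J. With the mean of the 30 other choroid plexus genes as covariate, Folr1 (-0.61, SE 0.21, adjusted p = 0.0172), Kl (-0.39) and Enpp2 (-0.43) were still called lower in CAST/EiJ than in C57BL/6J, while Ttr was at 0.27 (SE 0.37, adjusted p = 0.556). Against NZO/HlLtJ Folr1 was then at -0.34 (adjusted p = 0.225), Enpp2 at -0.36 was called lower and Kcnj13 at 0.66 higher. The ratio of Folr1 counts to Ttr counts thus differed between CAST/EiJ and the other strains. The values do not show whether either RNA differed in amount per cell. No strain-specific genome is named in the sources used here. Whether reads of the wild-derived CAST/EiJ were assigned to each gene as fully as those of the other strains was not tested. Such a loss and a lower amount of RNA cannot be told apart in these counts.

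The choroid plexus lists also held genes that differed at equal Ttr, in shares over both directions below that of all genes. In CAST/EiJ 4 of 30 were called higher and 5 lower than in C57BL/6J, where 51.4% of all genes were called. Sostdc1 at 0.82 and Tmem72 at 0.68 were highest, and Steap1 at -2.16 (SE 0.37) and Col9a3 at -0.75 lowest. Against NZO/HlLtJ 1 was called higher, Tmem72 at 0.65, and 9 lower, with Krt8 at -1.28 and Steap1 at -1.21 lowest, where 49.7% of all genes were called. NZO/HlLtJ differed from C57BL/6J for 4 of 30, against 20.1% of all genes, with Msx1 at 0.84 and Rdh5 at 0.53 higher, Col9a3 at 0.44 higher and Kcne2 at -0.46 lower.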

How the data were processed

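The 8 members and all marker lists were chosen with earlier results of these data known. Libraries were polyA-selected RNA, sequenced as paired ends of 100 bases on a NovaSeq 6000 per the labels' protocols. The authors deposited expected counts per gene, of which 18.7% to 22.7% in a library were not whole (tolerance 1e-06). They also deposited variance-stabilised log2 values, and an annotation table with gene positions in an other unit, 1e6 bases, per the file headers. GRCm38 and DESeq2 are named without a role per the submitters' processing notes. Aligner, counting program, annotation release and any use of strand: not given in the sources used here. No strain-specific genome is named.

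Expected counts were rounded and tested with edgeR 4.0.16 in R 4.3.3 (TMM factors 0.959 to 1.04, filterByExpr with a minimum count of 10 and total of 15, robust quasi-likelihood fit). All 36 libraries entered 1 fit with a mean for each of the 12 groups (24 residual degrees of freedom, 23 with the Ttr covariate), and Benjamini-Hochberg adjustment ran over all 20108 genes, or 20107 with Ttr as covariate. Diet effects are means over the sexes, strain effects means over diets and sexes. Correlations used log2 CPM (prior count 0.5) and 100000 permutations within strains, and since Ttr fell into 2 sets of libraries they are given within each set instead of over all 36, except that the genes most like the members were ranked over all 36. The limit of 100 CPM was chosen after seeing the data, as were the fit on 28 libraries and the fit without robust estimation. The limit of 10 CPM for the summed Hox genes came from an earlier analysis. Exon lengths came from gencode vM21 and promoter windows from RefSeq (GRCm38.p6).

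Genes named were the 8 members, the 15 protein-coding genes most like their mean, the 2 highest and 2 lowest of the choroid plexus lists in a comparison described, and the most abundant gene of each other list. Further list genes (Mia, Gabra6, and those that complete a small count) were chosen after their values were seen. Alternatives were DESeq2 1.42.0, limma 3.58.1 on the deposited log2 values, RLE size factors, no filter, an additive sex term, a Hox covariate, other plexus covariates and leaving out libraries. The fits were tested on simulated data at the same limit on adjusted p. Among the calls, 9.00% were false for the diet in CAST/EiJ and 3.85% for the slope on Ttr. For CAST/EiJ minus C57BL/6J at equal Ttr 7.98% were false. The simulated libraries varied less than the real ones, and their Ttr did not form 2 sets. Python 3.11.15, scipy 1.17.1 and matplotlib 3.10.9 were used for correlations and figures. The interval given by a count of 0 covers counting error only. A gene that the rule for named genes selects is not reported here.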

Additional observations from a re-analysis of the deposited data

Results flagged for a closer look

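In each set of 6 libraries of a strain and diet the gap between the highest or lowest library and the next was divided by the range of the set, for each member. Of 48 such tests 3 exceeded Dixon's critical value of 0.625. That value gives about 1 in 20 by chance only for independent tests on normally distributed values. The tests used CPM of members that moved together, so 3 of 48 cannot be set against that share. C57BL/6J female HFHS 2 had 30.2 CPM of Kcnj13, where the other 5 C57BL/6J HFHS libraries had 5.89 to 14.3 CPM (gap over range 0.656). NZO/HlLtJ female control 2 had 77.8 CPM of Clic6, where the others of its set had 3.68 to 28.1 CPM (0.671). The same library had 46.0 CPM of Slc4a5, where the others had 1.20 to 17.9 CPM (0.628). These were also the libraries with the most Ttr in their strains, 2540 and 2660 CPM.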

How the results depend on the processing

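No paired analysis was possible because the labels give the libraries no replicate numbers that could link them across groups. The calls of 0 members for diet, sex and the interaction were the same in every alternative run. In CAST/EiJ minus C57BL/6J the members called numbered 1 with limma on the deposited values and 1 with the Hox covariate. At equal Ttr, CAST/EiJ minus NZO/HlLtJ gave 2 without the 3 Hox-poor libraries, 1 with Folr1 as covariate and 2 with the choroid plexus list as covariate. CAST/EiJ minus C57BL/6J gave 1 with Folr1 as covariate. Calls for NZO/HlLtJ on the 28 libraries are not given, since NZO/HlLtJ male control 1 and NZO/HlLtJ male HFHS 1 stood alone in their groups there. With Folr1 as covariate Clic6 was at 0.12 (SE 0.20) against C57BL/6J and 0.01 (SE 0.21) against NZO/HlLtJ. Slc4a5 was at 0.21 (SE 0.17) against NZO/HlLtJ. The sign of these values had changed, but none of them was called. With the list as covariate Slc4a5 was at 0.01 against NZO/HlLtJ, and on the 28 libraries Enpp2 turned to -0.25 for NZO/HlLtJ minus C57BL/6J. The cause was not tested.

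Leaving out 1 library at a time gave 0 to 1 members called in NZO/HlLtJ minus C57BL/6J (1 without NZO/HlLtJ male control 1), 0 to 1 in CAST/EiJ minus C57BL/6J (1 without CAST/EiJ male control 2) and 0 to 1 in CAST/EiJ minus NZO/HlLtJ (1 without NZO/HlLtJ male control 1). At equal Ttr it gave 3 to 5 in CAST/EiJ minus NZO/HlLtJ, with 3 without NZO/HlLtJ female control 2 or NZO/HlLtJ male HFHS 1, and 3 to 5 in CAST/EiJ minus C57BL/6J. The slope on Ttr called 6 members in each such fit.

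Of all genes, the diet in CAST/EiJ called 54, but 708 with DESeq2, 276 with limma, 5 with an additive sex term, 4 without the Hox-poor libraries, 0 with the Hox covariate and 0 to 1928 without 1 library. The diet in NZO/HlLtJ called 10, but 100 with DESeq2, 23 with an additive sex term, 169 without the Hox-poor libraries, 5 with the Hox covariate and 0 to 94 without 1 library. The interaction called 0, but 49 with DESeq2, 7 without the Hox-poor libraries and 0 to 42 without 1 library. Male minus female called 16, and 33 with DESeq2. The slope on Ttr called 189, but 304 with DESeq2, 112 with the Hox covariate, 119 on the 28 libraries and 125 to 268 without 1 library. Folr1 is the member that depth limits most, with 0 counts in 1 library.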
